A study of Mus musculus with 6 samples.

Results

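Messenger RNA of 36 genes of glycolysis and pyruvate handling was compared between control dermal fibroblasts of the mouse and fibroblasts with stabilized β-catenin. The genes were taken from a fixed list that names the glucose transporters, the enzymes of glycolysis with their isozymes, the enzymes that set its pace, lactate dehydrogenase, the kinases and phosphatase of the pyruvate dehydrogenase complex, the lactate and pyruvate carriers, and the transcription factor subunit Hif1a. All 36 were found among the 41126 genes of the deposited table, and all 36 had enough fragments to be tested. The cells were fibroblasts of the ventral dermis, isolated at postnatal day 4 from CD1, C57Bl6 mixed mice and grown in culture. The Control libraries came from cells given an adenovirus that carries GFP (genotype label AdGFP; +/+), and the GOF (gain of function) libraries came from cells given an adenovirus that carries Cre recombinase, which removes exon 3 of 1 copy of Ctnnb1 (Ctnnb1Δex3/+) and leaves a β-catenin that is not degraded. Each group had 3 libraries, from 4 animals in all: 1 animal gave Control 0 and GOF 2, another gave Control 2 and GOF 0, and Control 1 and GOF 1 came from an animal each.

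The study's methods describe the control cells as carrying the same floxed allele, which the genotype label of the controls does not show, and the treatment text of the labels names the Cre virus for every culture, at a multiplicity of infection of 366 to 500, with serum-free medium. The study's methods give 366 to 500 for the Cre virus but 366 for the GFP virus. The virus, and possibly its dose, differs between the groups. Effects of Cre itself, of the dose and of β-catenin therefore cannot be told apart. The replicate libraries are cultures, and with 2 animals giving a culture to each group the p-values measure the spread between these cultures.

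Glycolysis breaks glucose down to pyruvate in the cytosol. Its first reactions trap and rearrange the sugar and spend ATP, phosphofructokinase commits it to the pathway, and the later reactions from Gapdh to pyruvate kinase yield NADH and ATP. Pyruvate is then either reduced to lactate and exported or carried into the mitochondrion, where the pyruvate dehydrogenase complex turns it into acetyl-CoA unless a kinase has switched the complex off. Fibroblasts in culture are known for strong glycolysis, most steps have several isozymes with tissue preferences, and hypoxia-inducible factor and Myc are classic activators of the pathway's genes.

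The libraries held between 35980831 and 42834467 estimated fragments, of which the 36 genes took between 0.781% and 1.12%. Levels are given as FPKM, the fragments scaled by transcript length and between libraries in the authors' Cuffdiff run, and differences as log2 fold changes fitted with edgeR to the estimated fragments. The gain of function was visible in Axin2, a direct target of the pathway, which lay between 0.136 and 0.177 FPKM in the controls and between 14.4 and 19.2 FPKM in GOF (log2 fold change 6.98 ± 0.26, SE). Ctnnb1 itself did not pass the test (log2 fold change -0.05 ± 0.15), and its gene-level fragments do not show the loss of an exon. Control 0 stood apart in the summed FPKM of all genes, with 716400 against 518100 and 525900 in the other controls and 508900 to 594800 in GOF, and results that turn on it are given without it.

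Markers of other cells and of division were summed in the same libraries. Of 10 genes of dividing cells 8 fell, and their summed FPKM was 149 to 243 in the controls and 84.4 to 95.1 in GOF. Of 9 fibroblast genes Vim rose and Dcn, Fn1 and Col1a2 fell, with summed FPKM of 3370 to 4063 and of 2586 to 3199. Of 10 skeletal muscle genes 3 were tested and 1 rose, Acta1. The list summed to 23.6 to 28.3 FPKM in the controls and 139 to 173 FPKM in GOF. Acta1 alone made up 22.7 to 26.4 FPKM and 137 to 171 FPKM of these sums. Of 8 keratinocyte genes 2 were tested and 1 rose (Dsp). The keratinocyte genes Krt5, Krt14, Krt1, Epcam, Trp63 and Cdh1 were at or near 0 and were not tested. Among the genes tested in the remaining lists, endothelium had 1 higher and 1 lower of 5, and macrophage 1 higher of 5. Adipocyte had 2 lower of 2, melanocyte 1 lower of 4 and neuron 1 higher of 3. No gene passed among 7 of pericytes or smooth muscle and 4 of Schwann cells. Of all tested genes 11.1% passed as higher and 10.2% as lower. The part of these cell states in the values below was not tested, and fewer cells of a type and less RNA per cell cannot be told apart in such cultures.

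A few genes of sugar handling and pyruvate control moved, while the bulk of the pathway did not pass the test. Eno3, Pfkp, Pgam1 and Pfkfb4 rose in GOF, and Pdk1 and Aldoc fell. These 6 of 36 genes are 16.7%, a share below the 21.2% of all 15462 tested genes that passed at an edgeR adjusted p under 0.05. Of all tested genes 11.1% passed as higher and 10.2% as lower, so 4 and 2 of 36 are no more than the background gives. Only Eno3 and Aldoc also changed by more than 2-fold, 5.56% of the list against 12.3% of all tested genes.

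The typical size of the differences was also that of the background. The median log2 fold change of the 36 genes was 0.13, beside -0.02 over all tested genes, and the median absolute log2 fold change was 0.33 beside 0.34. The 30 genes that did not pass ran from -0.55 to 0.61, 19 of them above 0 and 11 below. At an unadjusted edgeR p under 0.05 there were 12 of the 36 genes, beside 5399 of all 15462 tested genes. They were the 6 named and Slc2a3, Hk2, Gpi1, Pfkfb3, Pdk3 and Mpc1. All 3 GOF libraries lay on 1 side of all 3 controls in FPKM for 13 genes (36.1%), 7 higher and 6 lower in GOF, against 39.5% of all tested genes.

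The count of 6 moved with the libraries used. It was 3 without Control 1 or without Control 2, 2 without GOF 0 or without GOF 2, 4 without GOF 1 and 8 without Control 0. With the animal as a replicate block, a fit that leaves 1 residual degree of freedom, 9 genes passed: Pgam1 no longer did (edgeR adjusted p = 0.0543), while Hk1 (0.00843), Hk2 (0.0121), Mpc1 (0.0232) and Gpi1 (0.0382) did. Eno3 and Pfkp passed in every one of these fits.

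**Figure D1:**
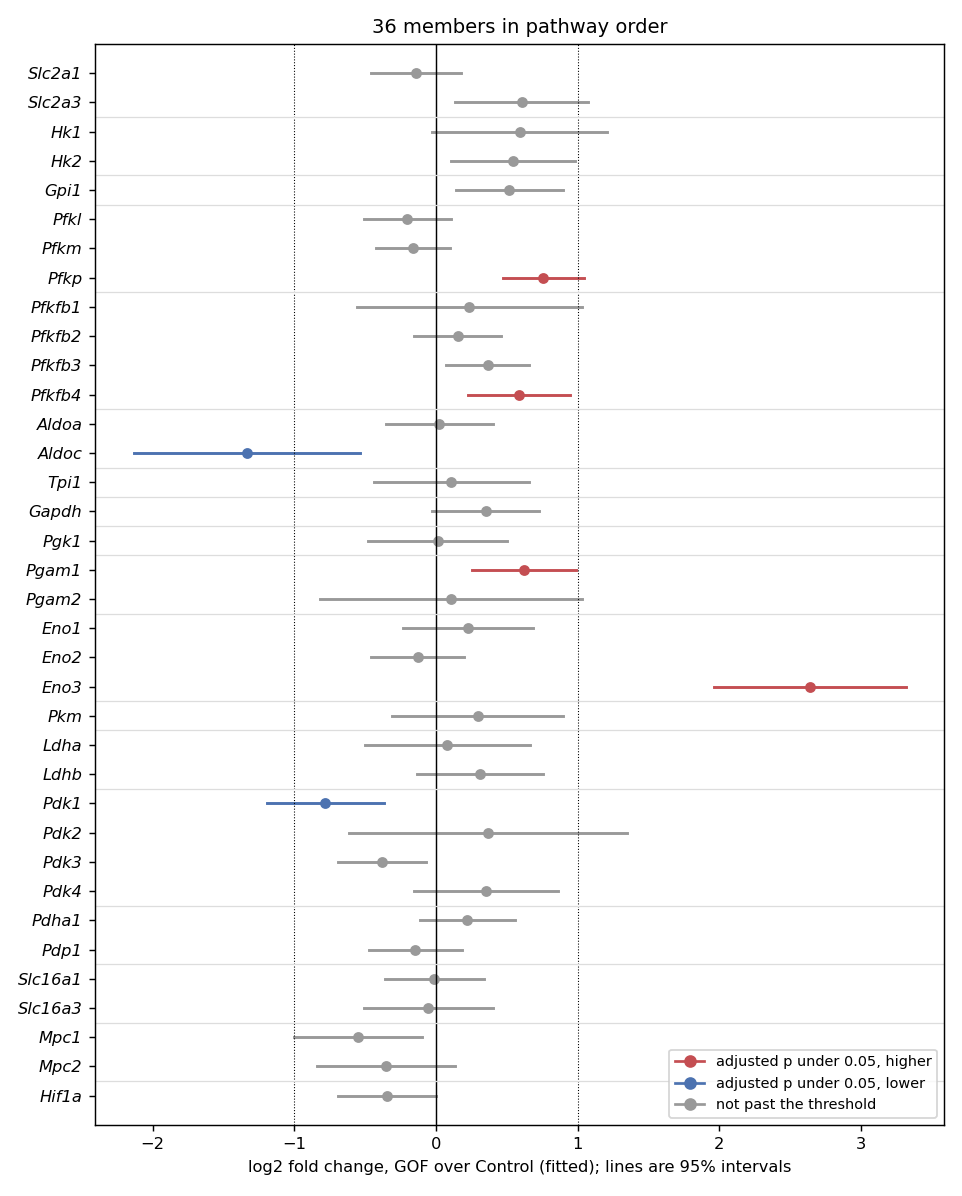
Fitted log2 fold change of each of the 36 genes, GOF over Control, in pathway order, with points for the edgeR estimate, lines for its 95% interval, grey rules between steps and dotted lines at a 2-fold change. Most intervals reach or cross 0, Eno3 lies far to the right at 2.64, and Aldoc (-1.34) and Pdk1 (-0.78) lie to the left.

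The promoters of the genes with the smallest adjusted p in each direction are printed as those of the genes that rose together and of the genes that fell together. The letters are RefSeq's (GRCm38.p6), 5′ to 3′ on the strand of the gene, and stop before RefSeq's start or, for Pfkp and Aldoc, before the GENCODE gene start, which lies further upstream: Eno3 chr11:70656926-70657175 on the plus strand, Pfkp chr13:6648778-6649021 on the minus strand, Pgam1 chr19:41911621-41911870, Pdk1 chr2:71872974-71873223 and Aldoc chr11:78322823-78322967 on the plus strand. Capitals mark the searched motifs in either orientation, ACGTG and GCGTG (the core of the hypoxia response element, reversed CACGT and CACGC) and CTTTGA and CTTTGT (the core of the Tcf/Lef site, reversed TCAAAG and ACAAAG).
Eno3: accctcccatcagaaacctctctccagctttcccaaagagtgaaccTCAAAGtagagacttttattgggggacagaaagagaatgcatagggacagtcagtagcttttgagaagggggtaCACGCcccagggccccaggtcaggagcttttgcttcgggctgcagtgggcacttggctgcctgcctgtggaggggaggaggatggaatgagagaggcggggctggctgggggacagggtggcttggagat
Pfkp: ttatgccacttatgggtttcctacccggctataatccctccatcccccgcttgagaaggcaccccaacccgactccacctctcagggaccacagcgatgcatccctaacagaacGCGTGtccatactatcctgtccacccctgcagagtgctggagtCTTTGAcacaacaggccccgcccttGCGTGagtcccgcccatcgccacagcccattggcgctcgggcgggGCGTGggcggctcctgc
Pgam1: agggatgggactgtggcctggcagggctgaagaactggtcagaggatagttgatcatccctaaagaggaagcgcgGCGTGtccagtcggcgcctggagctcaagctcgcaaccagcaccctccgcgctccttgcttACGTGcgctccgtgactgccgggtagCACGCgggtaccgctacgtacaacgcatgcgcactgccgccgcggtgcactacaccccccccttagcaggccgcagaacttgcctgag
Pdk1: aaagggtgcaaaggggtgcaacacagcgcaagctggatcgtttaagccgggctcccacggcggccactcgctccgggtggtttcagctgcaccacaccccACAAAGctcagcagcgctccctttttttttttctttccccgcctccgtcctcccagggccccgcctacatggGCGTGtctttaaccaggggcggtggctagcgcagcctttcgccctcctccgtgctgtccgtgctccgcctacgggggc
Aldoc: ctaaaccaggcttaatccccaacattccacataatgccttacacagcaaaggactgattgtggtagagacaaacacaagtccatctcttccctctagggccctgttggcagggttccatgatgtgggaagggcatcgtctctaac

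The search ran over windows of 250 bases before to 50 bases after the start, which the reference held for 34 of the 36 genes, all but Slc2a3 and Pdp1. The start was RefSeq's nearest to the GENCODE gene start, and some windows lie inside the GENCODE gene. The distance reached 6492 bases for Hif1a and 13205 for Pfkfb2. The matches in Aldoc lie past its printed letters. GCGTG stood in the window of all 6 genes that passed, in 20 of 34 windows of the list (58.8%) and in 32.4% of the 32851 promoters of the table. ACGTG stood in 2 of the 6 (Pgam1 and Aldoc), in 41.2% of the list and in 19.6% of all promoters, and CACGTG, the E-box, which contains ACGTG, in none of the 6, in 14.7% of the list and in 7.15% of all. CTTTGA stood in 3 of the 6 (Eno3, Pfkp and Pfkfb4), in 8.82% of the list and in 16.0% of all, and CTTTGT in Pdk1 alone of the 6, in 8.82% of the list and in 18.7% of all. The windows of the list were richer in G and C than the table's, with medians of 62.2% and 52.7%, and a match of a few letters is a description and not a binding site.

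The uptake of glucose and its first phosphorylation did not pass the test. Slc2a1, the glucose transporter of most cultured cells, was measured at 41.9, 36.7 and 33.8 FPKM in Control 0, 1 and 2 and at 32.8, 40.6 and 32.5 FPKM in GOF 0, 1 and 2. The groups overlapped (log2 fold change -0.14 ± 0.14, SE; edgeR adjusted p = 0.502) with a 95% interval from -0.46 to 0.18. Slc2a3, a high-affinity transporter, stayed under 1 FPKM in every library (mean 0.611 ± 0.212 in Control and 0.825 ± 0.126 in GOF, SD, n = 3; log2 fold change 0.61, edgeR adjusted p = 0.0719), so Slc2a1 held 98.4% and 97.7% of the FPKM of both transporters.

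The hexokinases, which trap glucose as glucose phosphate, had higher values in GOF without passing. Hk2, the inducible isozyme, was measured at 7.24, 12.8 and 9.84 FPKM in the controls and at 14.9, 16.2 and 13.9 FPKM in GOF. All 3 GOF libraries lay above all 3 controls, and the log2 fold change of 0.54 ± 0.19 missed the threshold (edgeR adjusted p = 0.0788), but not with DESeq2 (0.0389) or without Control 1 (0.0498). Hk1, the isozyme of most tissues, was as abundant (11.0 ± 2.45 and 16.7 ± 5.56 FPKM, SD, n = 3; log2 fold change 0.59, edgeR adjusted p = 0.158), with GOF 0 alone at 23.0 FPKM. Gpi1, which converts glucose phosphate to fructose phosphate, was at 106 ± 18.4 FPKM in Control and 156 ± 20.02 FPKM in GOF with no overlap (log2 fold change 0.52, edgeR adjusted p = 0.0595).

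At the committing step the platelet-type isozyme rose, and the other isozymes did not pass. Pfkp (ENSMUSG00000021196.8, chromosome 13, 6579768 to 6648777, minus strand, mm10) was measured at 18.8, 19.6 and 19.3 FPKM in the controls and at 32.2, 36.5 and 30.1 FPKM in GOF. The controls were within 1 FPKM of each other and every GOF library lay well above them, a 1.69-fold rise (95% interval 1.39 to 2.06; log2 fold change 0.76 ± 0.12; edgeR adjusted p = 0.00543). In the animals that gave both cultures the log2 ratio of FPKM was 0.74 and 0.68. Pfkl, the liver-type isozyme, was at 33.6 ± 2.88 and 29.1 ± 4.25 FPKM, and Pfkm, the muscle type, at 12.7 ± 0.950 and 11.6 ± 0.230 FPKM, with log2 fold changes of -0.20 and -0.16 that did not pass (edgeR adjusted p = 0.319 and 0.344). The 3′ end of Pfkp overlaps 748 bases of Pitrm1 on the other strand, and whether the authors' counting used the strand is not stated. Pitrm1 did not pass and pointed the other way (log2 fold change -0.19 ± 0.11; edgeR adjusted p = 0.264). Pfkm overlaps 1156 bases of Senp1 on the other strand. Over all libraries Pfkm had 10210 fragments beside 6378 of Senp1. Whether the level of Pfkm includes fragments of Senp1 was not tested.

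The bifunctional enzymes of the PFKFB family make and remove the bisphosphate that activates phosphofructokinase. Pfkfb4 (ENSMUSG00000025648.12) was measured at 4.41, 3.69 and 2.98 FPKM in the controls and at 5.15, 5.35 and 5.61 FPKM in GOF. The GOF libraries were close together and above every control, a 1.502-fold rise (log2 fold change 0.59 ± 0.15; edgeR adjusted p = 0.0333). The call was lost without any 1 library other than Control 0 (edgeR adjusted p = 0.0758 to 0.106) and with limma on FPKM (0.0696 and 0.0748). Pfkfb3, an isozyme with strong kinase activity, did not overlap either, at 3.96 ± 0.4998 and 5.17 ± 0.198 FPKM, but did not pass (log2 fold change 0.37, edgeR adjusted p = 0.0813). Pfkfb2 (7.33 and 8.17 FPKM) and Pfkfb1 (1.06 and 1.39 FPKM) overlapped between the groups. Both genes overlap a neighbour on the other strand. Over all libraries Pfkfb1 had 449 fragments beside 2962 of Apex2, and Pfkfb2 had 6483 beside 5552 of Yod1. Whether their levels include fragments of these neighbours was not tested.

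**Figure D2:**
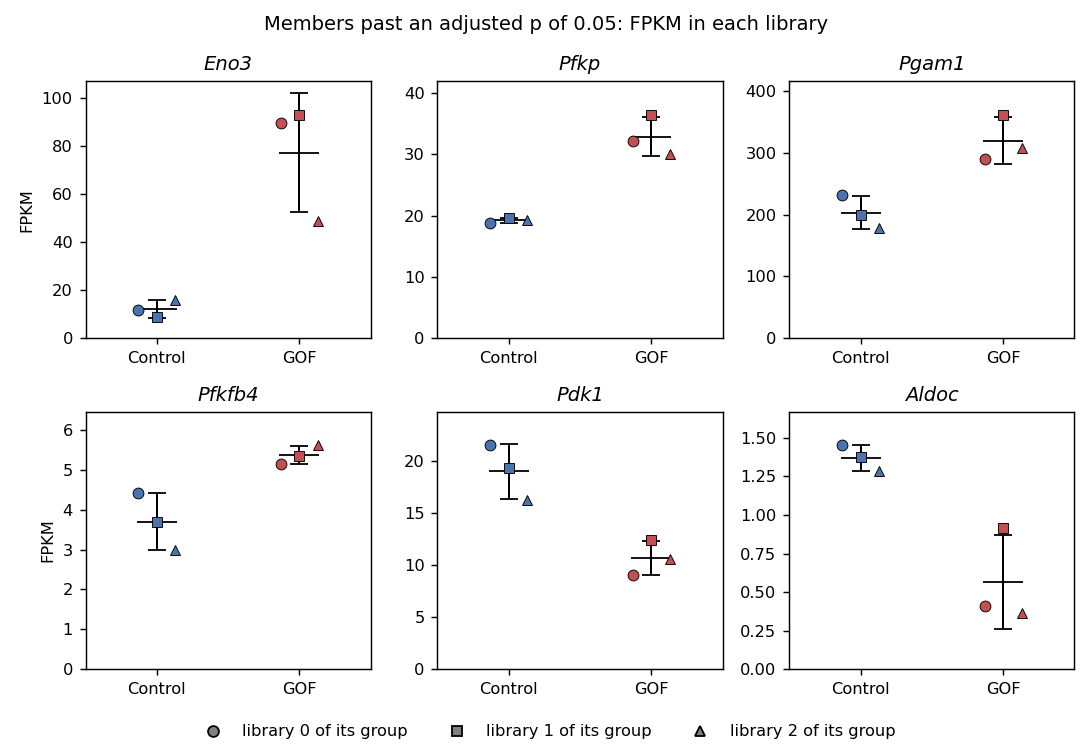
FPKM of the 6 genes with an edgeR adjusted p under 0.05 in each of the 3 Control (blue) and 3 GOF (red) libraries, each axis starting at 0, with the mean and SD in black and the marker shape giving the library number within its group, which pairs nothing between groups. No gene overlaps between groups, Eno3 is spread from 48.7 to 93.0 FPKM among the GOF libraries, and Aldoc is low in every library at 0.365 to 1.45 FPKM.

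Among the aldolases, which split the fructose bisphosphate, the scarce brain-type isozyme fell. Aldoc (ENSMUSG00000017390.10) was measured at 1.45, 1.38 and 1.28 FPKM in the controls and at 0.413, 0.915 and 0.365 FPKM in GOF. The groups did not overlap and GOF 1 was nearest to the controls (2.52-fold lower; log2 fold change -1.34 ± 0.34; edgeR adjusted p = 0.0304), on counts of 91 to 111 and of 31 to 63 fragments. The call was lost without Control 1 (edgeR adjusted p = 0.0904), Control 2 (0.0799), GOF 0 (0.109) or GOF 2 (0.0722). Aldoa supplied 99.8% to 99.9% of aldolase FPKM, at 629 ± 106 FPKM in Control and 656 ± 54.3 FPKM in GOF, and did not pass (log2 fold change 0.02, 95% interval -0.36 to 0.40; edgeR adjusted p = 0.941).

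Gapdh, Tpi1 and Pgk1 were abundant and did not pass. Gapdh, the oxidizing step and a common reference gene, was measured at 658, 485 and 503 FPKM in the controls and at 750.2, 772.5 and 633 FPKM in GOF. Only GOF 2 fell within the controls, below Control 0, and the log2 fold change was 0.35 ± 0.16 (edgeR adjusted p = 0.17). Without Control 0 it was 0.48 and passed (edgeR adjusted p = 0.047). Tpi1, triose phosphate isomerase (239.9 and 266 FPKM), and Pgk1, the first ATP-yielding kinase (236 and 242 FPKM), had log2 fold changes of 0.11 and 0.01 (edgeR adjusted p = 0.776 and 0.974). Control 0 was the highest control for both, as it was for 19 of the 36 genes (41.8% of all tested genes had it highest).

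Pgam1, the phosphoglycerate mutase of non-muscle tissue, rose. It (ENSMUSG00000011752.6) was measured at 231, 200 and 179 FPKM in the controls and at 289.5, 361 and 307 FPKM in GOF. Every GOF library lay above every control, a 1.54-fold rise (95% interval 1.19 to 1.98; log2 fold change 0.62 ± 0.16; edgeR adjusted p = 0.0288). The call was lost without any 1 library other than Control 0 (edgeR adjusted p = 0.0526 to 0.108). Pgam2, the muscle isozyme, was near 1 FPKM in both groups (0.981 ± 0.390 and 1.097 ± 0.359), on 17 to 45 fragments a library.

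The largest difference of the pathway was in an enolase isozyme best known from muscle. Eno3 (ENSMUSG00000060600.10, chromosome 11, 70657202 to 70662513, plus strand, mm10) was measured at 11.9, 8.75 and 16.1 FPKM in the controls and at 89.7, 93.0 and 48.7 FPKM in GOF. Every GOF library lay far above every control, and GOF 2 stood below GOF 0 and GOF 1. The rise was 6.24-fold (95% interval 3.90 to 9.98; log2 fold change 2.64 ± 0.29; edgeR adjusted p = 0.00122). Within the animals that gave both cultures the log2 ratio of FPKM was 2.48 and 2.04.

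Eno3 stayed far below Eno1 in level. Eno1, the isozyme of most tissues, was at 409 ± 101 FPKM in Control and 497 ± 21.1 FPKM in GOF (log2 fold change 0.23, edgeR adjusted p = 0.453), and passed without Control 0 (log2 fold change 0.45, edgeR adjusted p = 0.0479). Its level is uncertain by the reads it shares with the near-identical genes Eno1b and Gm4735, which were given 13.4% and 13.6% as many fragments, and neither of which passed. Eno2, the neuronal isozyme, was at 7.34 and 6.74 FPKM (log2 fold change -0.13, edgeR adjusted p = 0.559). No stretch of Eno3 of at least 100 bases matched another gene's transcript at 95% identity. Of muscle genes measured beside Eno3, Myod1, Myog and Ckm were at or under 0.131 FPKM in every library, while Acta1, skeletal actin, was at 22.7 to 26.4 FPKM in Control and at 137 to 171 FPKM in GOF (log2 fold change 2.53 ± 0.14; edgeR adjusted p = 1.05e-04).

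Pyruvate kinase and lactate dehydrogenase overlapped between the groups. Pkm, which makes pyruvate, was the most abundant gene of the list in every library, at 1046, 629 and 609 FPKM in the controls and at 819, 991 and 1079 FPKM in GOF. Control 0 lay among the GOF libraries and far from the other controls (log2 fold change 0.29 ± 0.26; edgeR adjusted p = 0.462), and gene-level values do not separate the M1 and M2 forms. Ldha, which reduces pyruvate to lactate, was measured at 781, 486 and 439 FPKM in the controls and at 519, 708 and 613 FPKM in GOF. Its highest library was Control 0, and the log2 fold change of 0.08 ± 0.25 (edgeR adjusted p = 0.853; 95% interval -0.50 to 0.66) changed sign when Control 1, Control 2 or GOF 1 was left out (-0.0090, -0.093 and -0.039). Ldhb, the isozyme of oxidative tissue, was at 18.0 ± 3.37 and 23.1 ± 4.45 FPKM (log2 fold change 0.31, edgeR adjusted p = 0.29).

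Of the genes that decide the fate of pyruvate, 1 kinase of the pyruvate dehydrogenase complex fell. Pdk1 (ENSMUSG00000006494.6, chromosome 2, 71873224 to 71903858, plus strand, mm10), a kinase that inactivates the complex and is induced in hypoxia, was measured at 21.5, 19.3 and 16.3 FPKM in the controls and at 9.10, 12.4 and 10.6 FPKM in GOF. Every GOF library lay below every control, a 1.72-fold fall seen in both animals that gave 2 cultures (log2 fold change -0.78 ± 0.18; edgeR adjusted p = 0.0194). The call was lost without Control 1 (edgeR adjusted p = 0.0623), GOF 0 (0.0826) or GOF 2 (0.0538). Pdk3 was at 24.2 ± 2.08 and 18.6 ± 2.35 FPKM with no overlap and did not pass (log2 fold change -0.38, edgeR adjusted p = 0.0813). Pdk2 (1.43 and 1.91 FPKM) and Pdk4 (1.59 and 2.05 FPKM), the kinase of fasting, were scarce and had positive log2 fold changes of 0.37 and 0.35 (edgeR adjusted p = 0.577 and 0.292).

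The target of these kinases and the phosphatase that opposes them did not pass. Pdha1, the catalytic subunit that Pdk1 phosphorylates, was at 112 ± 12.5 FPKM in Control and 129 ± 19.4 FPKM in GOF (log2 fold change 0.22, edgeR adjusted p = 0.32), and Pdp1, the phosphatase, at 6.92 ± 0.635 and 6.41 ± 0.838 FPKM (-0.14, edgeR adjusted p = 0.506). Mpc1 and Mpc2 together form the carrier that takes pyruvate into the mitochondrion. Mpc1 was at 59.2 ± 13.9 and 40.7 ± 5.36 FPKM with no overlap (log2 fold change -0.55, edgeR adjusted p = 0.0857), and Mpc2 at 55.4 ± 14.6 and 47.0 ± 6.17 FPKM with overlap (-0.35, edgeR adjusted p = 0.273). The proton-linked lactate carriers did not pass. Slc16a1 was at 10.3 and 10.1 FPKM (log2 fold change -0.01, 95% interval -0.36 to 0.34; edgeR adjusted p = 0.967). Slc16a3, the export form of glycolytic cells, was at 55.8 and 51.4 FPKM (-0.05, 95% interval -0.51 to 0.40; edgeR adjusted p = 0.873).

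Hif1a, the oxygen-regulated subunit that switches on many of these genes, was measured at 135, 127 and 116 FPKM in the controls and at 86.7, 102.4 and 101.5 FPKM in GOF. All GOF libraries lay below all controls, and the log2 fold change of -0.35 ± 0.15 did not pass (edgeR adjusted p = 0.144). Its activity is set mostly by protein stability, which these libraries do not measure.

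Which isozyme supplied a step was compared as its share in the summed FPKM of the family in each library, for 9 families with 1 isozyme each, by an exact permutation test whose smallest p at 3 against 3 is 0.1. The groups did not overlap in 3 of the 9, a count to be read beside the 39.5% of all tested genes whose FPKM did not overlap. Pfkp supplied 29.2%, 28.6% and 30.3% of phosphofructokinase FPKM in the controls and 42.5%, 46.1% and 45.5% in GOF, and went from behind Pfkl (51.2% ± 2.68) in every control to ahead of it (39.4% ± 2.70, SD, n = 3) in every GOF library (exact permutation p = 0.1, adjusted over the 9 families 0.3). In GOF 0 they were nearly level, with Pfkp at 42.5% and Pfkl at 42.0%. Aldoc went from 0.220% ± 0.0237 to 0.0838% ± 0.0378 and Pdk4 from 3.42% ± 0.380 to 6.12% ± 0.791, both with the same exact permutation p of 0.1 and adjusted 0.3. The shares of Slc2a3, Hk2, Pfkfb3, Eno2, Ldhb and Slc16a3 overlapped between the groups (exact permutation p = 0.2 to 1).

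Outside these tests, the share of Eno3 among the enolases was 2.98% ± 1.27 in Control and 13.2% ± 3.73 (SD, n = 3) in GOF, against 95.2% and 85.7% for Eno1. Pdk1 went from 41.1% ± 3.74 to 32.2% ± 3.51 of the kinases, and Pdk3 was the most abundant of them in both groups (52.3% and 55.8%). Mpc1 went from 51.8% ± 0.963 to 46.5% ± 0.341 of the carrier, so that Mpc2 was the more abundant subunit in every GOF library and the less abundant in every control. These shares are descriptions without a test.

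**Figure D3:**
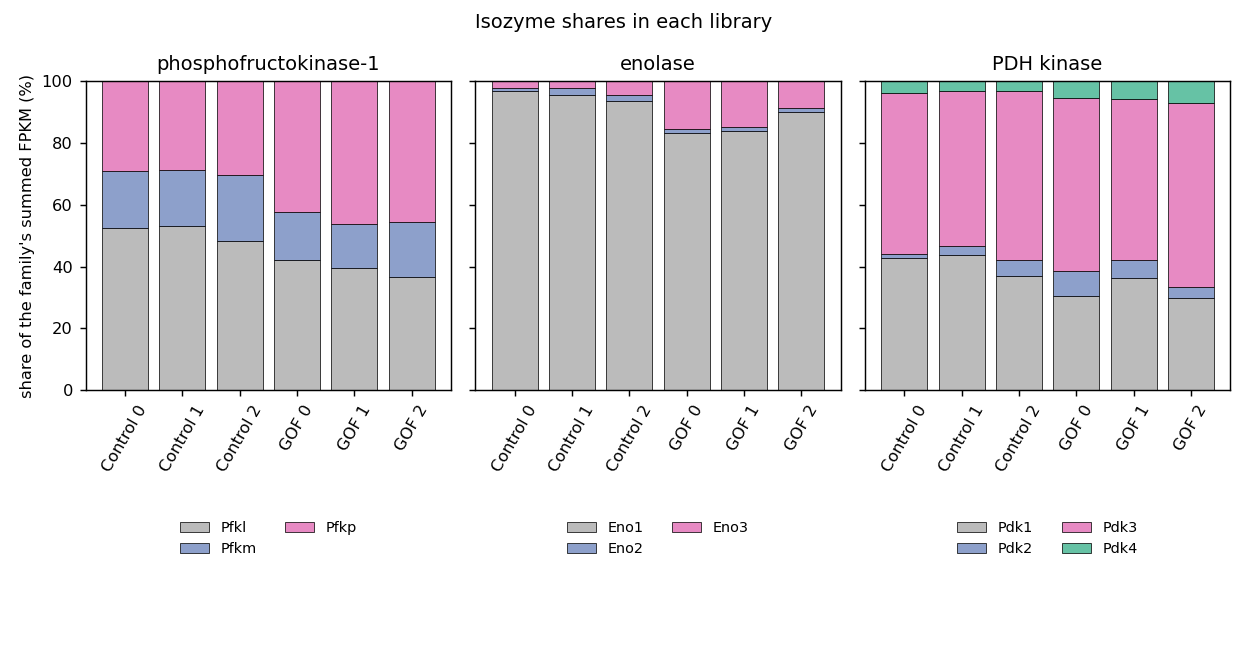
Share of each isozyme in the summed FPKM of phosphofructokinase, enolase and pyruvate dehydrogenase (PDH) kinase, stacked to 100%, with 1 bar for each of the 3 Control and 3 GOF libraries. Pfkp is 28.6% to 30.3% in the controls and 42.5% to 46.1% in GOF, Eno3 is 2.19% to 4.44% and 8.87% to 15.6%, and Pdk1 is 36.9% to 43.9% and 29.9% to 36.2%.

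Genes that surround the pathway were read from lists of 127 genes, of which 114 were tested, 12 rose and 9 fell, again no larger a share than the background. The largest rise was in the side enzyme that makes the bisphosphoglycerate of red cells. Bpgm was measured at 11.2, 9.603 and 10.2 FPKM in the controls and at 108, 124 and 97.3 FPKM in GOF. The libraries of each group were close together and far from the other group (log2 fold change 3.41 ± 0.15; edgeR adjusted p = 5.45e-05). In the same list of 13 tested side enzymes and other isozymes Tigar, a phosphatase that slows glycolysis (log2 fold change 0.49, edgeR adjusted p = 0.022), and Gpd2, the mitochondrial end of the glycerophosphate shuttle (0.71, edgeR adjusted p = 0.0393), rose and none fell. The call of Tigar was lost without Control 1, Control 2, GOF 0 or GOF 2 (edgeR adjusted p = 0.0509 to 0.107), and that of Gpd2 without any 1 library other than GOF 2 (0.0783 to 0.13). With the animal as a replicate block neither passed (edgeR adjusted p = 0.073 for Tigar and 0.0642 for Gpd2).

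Of 3 tested genes of gluconeogenesis Pcx, which turns pyruvate into oxaloacetate, rose (log2 fold change 1.04 ± 0.23; edgeR adjusted p = 0.0175), from 3.98 to 5.18 FPKM in the controls to 6.70 to 11.0 FPKM in GOF, and Pck2, the mitochondrial enzyme that makes phosphoenolpyruvate, fell (-1.01 ± 0.25; edgeR adjusted p = 0.0275). The Pcx call was lost without Control 1 or GOF 0 (edgeR adjusted p = 0.057 and 0.071), and the Pck2 call without Control 0, Control 1, GOF 0 or GOF 1 (0.0536 to 0.109). Fbp1, Fbp2, Pck1 and G6pc, enzymes of liver, kidney and muscle, were at or near 0. Among 8 further subunits and controllers of the pyruvate dehydrogenase complex 1 fell, Pdpr, a regulator of its phosphatase (log2 fold change -0.66 ± 0.15; edgeR adjusted p = 0.0184), a call lost without Control 1, Control 2 or GOF 0 (0.0674 to 0.0796).

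Among 14 tested glucose and monocarboxylate transporters beside the listed ones, 2 rose and 2 fell. Emb, embigin, an ancillary protein that brings monocarboxylate transporters to the cell surface, was measured at 89.6, 93.5 and 104 FPKM in the controls and at 11.9, 15.9 and 13.1 FPKM in GOF. The GOF libraries were all far below the controls (log2 fold change -2.81 ± 0.17; edgeR adjusted p = 1.81e-04). Bsg, basigin, of the same list was more abundant, at 447 FPKM in Control and 505 FPKM in GOF. It overlapped between the groups and did not pass (log2 fold change 0.13 ± 0.18, edgeR adjusted p = 0.641). Slc16a4 fell (log2 fold change -1.75, edgeR adjusted p = 0.00333) and Slc16a13 rose (1.33, edgeR adjusted p = 0.00591), both at low levels. The call of Slc2a9, a urate and hexose transporter, came next (log2 fold change 1.48, edgeR adjusted p = 0.0229).

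Of 19 tested hypoxia-inducible genes outside glycolysis 2 rose and none fell, beside 11.1% and 10.2% of all tested genes, and their median log2 fold change was -0.03. Egln3, a prolyl hydroxylase that marks Hif1a for degradation, was measured at 1.91, 1.51 and 1.44 FPKM in the controls and at 4.77, 6.55 and 4.19 FPKM in GOF. All GOF libraries lay above the controls (log2 fold change 1.66 ± 0.23; edgeR adjusted p = 0.0028). Car12, a carbonic anhydrase, rose from a very low level (0.0904 to 0.505 FPKM; log2 fold change 2.54, edgeR adjusted p = 0.00919), and Vegfa, the best-known target, did not pass (41.6 and 36.02 FPKM; log2 fold change -0.20, edgeR adjusted p = 0.336). Of the 8 tested regulators of the factor Egln3, which stands in both lists, rose and Vhl, which targets the factor for degradation, fell (log2 fold change -0.50 ± 0.12; edgeR adjusted p = 0.0252), a call lost without Control 1, Control 2, GOF 0 or GOF 1 (0.0651 to 0.1).

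Among 16 tested regulators of glucose metabolism 1 rose and 2 fell. Txnip, which restrains glucose uptake and is itself induced by glucose, was measured at 91.4, 104 and 124 FPKM in the controls and at 48.4, 51.4 and 50.3 FPKM in GOF. The GOF libraries were alike and all below the controls (log2 fold change -1.09 ± 0.13; edgeR adjusted p = 0.00184). Prkaa2, a catalytic subunit of the energy sensor AMPK, rose from 0.234 to 2.06 FPKM (log2 fold change 3.12 ± 0.31; edgeR adjusted p = 7.82e-04), while the main subunit Prkaa1 did not pass (17.4 and 21.2 FPKM; 0.32, edgeR adjusted p = 0.157). Ppargc1b, a coactivator of mitochondrial genes, fell from a trace level (0.142 to 0.082 FPKM; log2 fold change -1.69, edgeR adjusted p = 0.0248), a call that limma on FPKM did not make (0.325 and 0.432) and that was lost without any 1 library other than Control 0 (0.0557 to 0.0922). Its FPKM overlapped between the groups, with GOF 1 at 0.162 above Control 0 and Control 1. The counts were 18 to 29 fragments a library in Control and 4 to 10 in GOF.

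**Figure D4:**
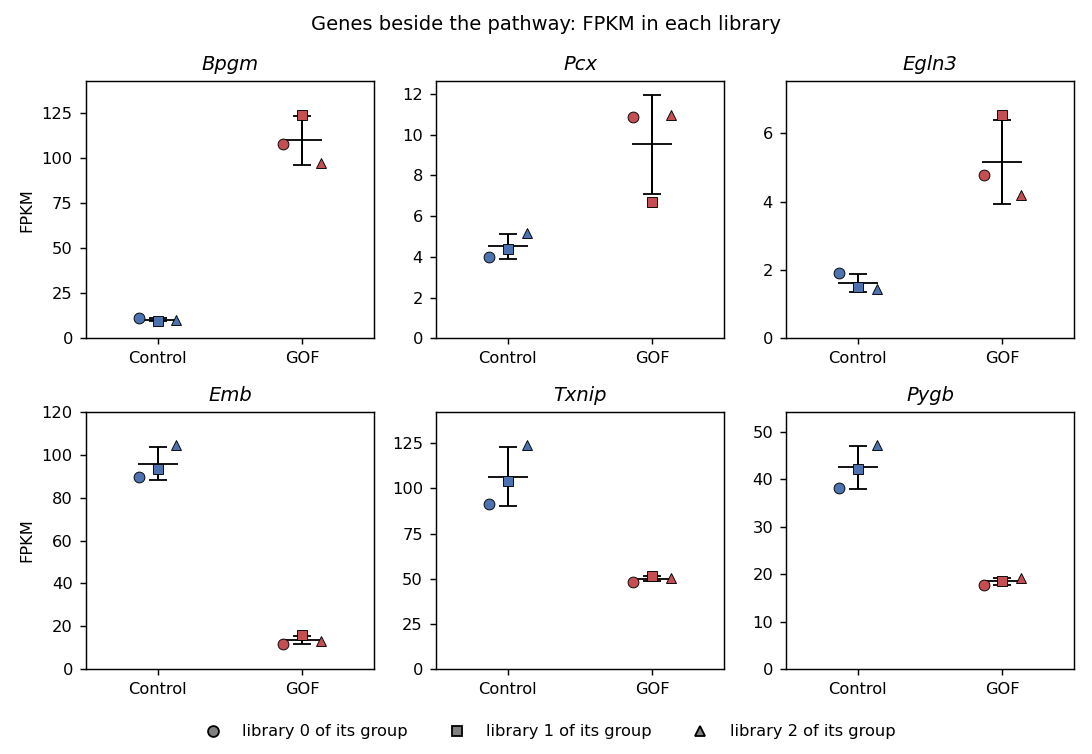
FPKM of 6 genes beside the pathway in each of the 3 Control (blue) and 3 GOF (red) libraries, each axis starting at 0, with the mean and SD in black. Bpgm (9.603 to 11.2 against 97.3 to 124 FPKM), Pcx and Egln3 are higher in every GOF library, and Emb, Txnip and Pygb (38.1 to 47.2 against 17.7 to 19.1 FPKM) are lower in every GOF library.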

How the data were processed

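RNA of 6 cultures was sequenced as stranded, paired-end libraries, mapped to mm10 with TopHat and quantified with Cuffdiff at standard settings. Estimated counts were deposited by the authors as fragments per gene and library before scaling, and were rounded here since 4.95% were not whole. FPKM values were deposited as the authors' Cuffdiff run scaled them by length and between libraries. A further 6 columns of per-library values, those of the table of lncRNAs included, were not used, and 32 genes with a failed estimate were left out. Symbols came from GENCODE M21 (97.9% of genes).

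Estimated counts were tested in R 4.3.3 with edgeR 4.0.16 (TMM, filterByExpr, quasi-likelihood test, Benjamini-Hochberg adjustment over 15462 genes), GOF against Control without a block, and rose and fell mean an adjusted p under 0.05. The script was tested on simulated counts with known changes. There edgeR called 34 of 100 genes changed 2-fold and 85 of 95 genes with a log2 fold change of 2. It also called 12 of 15019 unchanged genes. A 2-fold change was thus missed more often than called, and a gene that did not pass is not shown to be unchanged. Near-identical transcripts were sought with blastn 2.17.0. Alternatives were library totals, upper quartile scaling, no filter, a minimum FPKM of 1 in 3 libraries, DESeq2 1.42.0, limma 3.58.1 on log2(FPKM + 1) or log2(FPKM + 0.1), replicate blocks, and each library left out.

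The genes and lists were chosen with earlier results of these data known. Values of each library are given for genes that passed and for Slc2a1, Hk2, Gapdh, Pkm, Ldha and Hif1a, and up to 3 genes with the smallest adjusted p are named from each surrounding list. Vegfa, Prkaa1, Slc2a9, Bsg, Acta1, Vim, Dcn, Fn1, Col1a2, Dsp and the genes at or near 0 were named after their values were seen. Deviations from the group means correlated at 0.41 and 0.46 between libraries of 1 animal, and at -0.41, 0.054 and -0.44 between libraries with the same label number, so the animal pairs cultures and the number does not.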

Additional observations from a re-analysis of the deposited data

How the results depend on the processing

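The number of genes of the list with an adjusted p under 0.05 was 6, and it was 10 with DESeq2 (8 higher, 2 lower, with Slc2a3, Hk2, Gpi1 and Pfkfb3 added), 2 with the replicate block by label number and 2 to 8 with a library left out. The 2 genes also past a 2-fold change became 1 with limma on log2(FPKM + 1), with the replicate block by label number and without both libraries of the animal that gave Control 0 and GOF 2, an alternative added after seeing the data, and were 1 to 2 with a library left out. The median log2 fold change of the list moved from 0.13 to 0.26 without that animal, and was 0.034 to 0.18 with a library left out. The 21 surrounding genes past the threshold became 11 with the replicate block by number, 41 without that animal and 9 to 24 with a library left out. The isozyme families without overlap were 3 to 5 with a library left out. The log2 fold change of Ldha (0.079, not past the threshold) turned to -0.057 with the animal as a replicate block, -0.0090 without Control 1, -0.093 without Control 2 and -0.039 without GOF 1, and ran from -0.093 to 0.37 with a library left out. The causes were not tested. Eno3, Pfkp, Bpgm, Emb, Egln3, Txnip, Prkaa2 and Pygb passed in all 16 alternatives. The call was lost in 8 of 16 for Pfkfb4, 7 for Pgam1, 6 for Aldoc and 4 for Pdk1. With 3 libraries a group, the median SE of a log2 fold change in the list was 0.18, which limits what could be told from 0.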

Other observations

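Downstream of pyruvate, 3 of 17 tested genes of the TCA cycle rose and none fell, beside 11.1% and 10.2% of all tested genes. None of the 3 changed by more than 2-fold. Ogdh and Dlst, the first components of the oxoglutarate dehydrogenase complex, went from 11.2 to 19.9 FPKM (log2 fold change 0.86 ± 0.21; edgeR adjusted p = 0.0278) and from 42.7 to 56.0 FPKM (0.37 ± 0.11; edgeR adjusted p = 0.0483), and Idh3a, a subunit of the NAD-linked isocitrate dehydrogenase, from 17.8 to 27.1 FPKM (0.61 ± 0.16; edgeR adjusted p = 0.0301). The median log2 fold change of the list was 0.18, beside -0.02 over all tested genes, with summed FPKM of 859 to 956 in Control and 1034 to 1091 in GOF. The call of Ogdh was lost without Control 0, Control 1, GOF 0 or GOF 1 (edgeR adjusted p = 0.0514 to 0.0981), that of Idh3a without Control 1, Control 2, GOF 0 or GOF 1 (0.094 to 0.119) and that of Dlst without any 1 library other than Control 0 (0.105 to 0.202). With the animal as a replicate block Idh3a (edgeR adjusted p = 0.108) and Dlst (0.0999) did not pass.

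Of 8 genes of the pentose phosphate pathway 1 fell, H6pd, the hexose phosphate dehydrogenase of the endoplasmic reticulum (27.4 to 20.1 FPKM; log2 fold change -0.50 ± 0.12; edgeR adjusted p = 0.0248), a call lost without any 1 library other than Control 0 (0.0607 to 0.0996) and with the animal as a replicate block (0.0522). Of 10 tested genes of serine synthesis and glycogen turnover 1 fell. Pygb, the brain-type glycogen phosphorylase, which releases glucose phosphate from glycogen, was measured at 38.1, 42.3 and 47.2 FPKM in the controls and at 17.7, 18.7 and 19.1 FPKM in GOF (log2 fold change -1.21 ± 0.12; edgeR adjusted p = 7.14e-04).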
